A study of Mus musculus with 6 samples.

Results

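*Il12rb1*, *Il12rb2*, *Il23r*, *Stat4*, *Il18r1*, *Il18rap*, *Tyk2*, and *Jak2* encode the receptors for IL-12, IL-23, and IL-18 together with the kinases and the transcription factor that act behind the IL-12 receptor. They were chosen by name, with earlier results of these data known. They were matched to the Ensembl identifiers of the count table and read in all 6 samples. All 8 were found among 47643 genes, and all 8 passed the filter of 10 reads over the 6 samples that left 11877 genes to test, with totals from 31 reads for *Il18r1* to 1150 for *Stat4*.

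The cells were splenic CD4+ *Nr4a3*-Blue+Red+ T cells, sorted from mice that the labels call Tg4 Tiger *Nr4a3*-Tocky and the methods Tg4 *Nr4a3*-Tocky *Il10*-GFP. In these mice CD4+ T cells carry a transgenic receptor for a myelin basic protein (MBP) peptide, and a Timer protein reports *Nr4a3*, a gene switched on by T cell receptor signaling; it fluoresces blue when new and red once mature. All mice received 80 μg of 4Y MBP peptide under the skin, then 800 μg of antibody into the peritoneum 24 h later and 8 μg of peptide 30 min after that, and spleens were taken 4 h after the last dose. The groups differed in the antibody, which was an isotype pool (rat IgG1 and rat IgG2a), anti-PD1 (clone 29F.1A12), or anti-Lag3 (clone CB97W in the labels), with 2 biological duplicates each. Mice of both sexes were used in the study, mouse age and the sex behind each sample are not given in the sources used here, and a group without peptide was not analysed here. Because the sort kept only cells that had switched on the reporter, the counts describe cells that responded, not all T cells of the spleen.

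The receptor for IL-12 pairs the shared chain *Il12rb1* with *Il12rb2*, and the receptor for IL-23 pairs the same shared chain with *Il23r*. The kinases *Tyk2* and *Jak2* are bound to these chains and phosphorylate STAT proteins, with STAT4 best known downstream of IL-12 and STAT3 downstream of IL-23. IL-12 favours Th1 cells and IL-23 sustains Th17 cells. The IL-18 receptor, built from *Il18r1* and *Il18rap*, belongs to the IL-1 receptor family, signals through MyD88, and acts together with IL-12 on T cells.

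Library totals ran from 2107715 to 2648920 reads, so that 3 reads in a sample correspond to between 1.11 and 1.44 CPM (the usual library-scaled read count, here with library sizes adjusted by TMM). The ribosomal RNA-like transcript *Gm42418* took 17.4% to 21% of the reads. Replicates of a group differed by more than sampling noise, with a chi-square per degree of freedom of 2.65 to 3.29. The summed level of 8 CD4+ T cell markers lay between 1500 and 1800 CPM. The summed level of 7 B cell markers was 20.5 and 21.2 CPM in the isotype samples and 5.06 to 8.18 CPM in the other 4 samples, with *Cd79a* at 0 throughout. That of 8 macrophage and monocyte markers was 55.5 and 74.5 CPM in the isotype samples and 19.2 to 35.7 CPM in the others. *C1qa* was called lower with anti-PD1 than with isotype (log2 fold change -2.59, edgeR adjusted p = 0.0266), a call lost with DESeq2 (adjusted p = 0.191), with limma-voom (adjusted p = 0.0968), and without any 1 of the 4 samples compared (edgeR adjusted p from 0.165 to 0.34). The CD8 T cell markers *Cd8a* and *Cd8b1* summed to 54.7 and 48.3 CPM with isotype and 29.8 to 34.5 CPM in the others, and neither was called. Of the CD4+ T cell markers, *Cd5* was called higher with anti-PD1 (log2 fold change 1.01, edgeR adjusted p = 0.00154), a call lost without isotype replicate 2 or anti-PD1 replicate 2 (edgeR adjusted p = 0.0588 and 0.301). The part of these cells in the results below was not tested. Natural killer and innate lymphoid cell markers, whose cells also carry IL-12 and IL-18 receptors, summed to 11.3 and 4.03 CPM with isotype, 5.27 and 11.9 CPM with anti-PD1, and 4.22 and 2.97 CPM with anti-Lag3, with *Klre1* and *Klra8* at 0. RNA counts do not check the blockade, since an antibody does not remove its target's gene, and *Pdcd1* and *Lag3* passed the test in no comparison. *Nr4a3* RNA did not pass either, but was lower with anti-PD1 (29.7 and 29.4 CPM) than with isotype (51.4 and 45.1 CPM). Its log2 fold change was -0.70 (edgeR adjusted p = 0.195). The study reported higher *Nr4a3*-Blue, a protein measure, in responding cells with anti-PD1.

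*Il12rb2* and *Il23r* lie side by side on chromosome 6 and both read leftward. In GRCm38, *Il12rb2* (ENSMUSG00000018341) spans chr6:67291318-67376188 and *Il23r* (ENSMUSG00000049093) spans chr6:67422932-67491855, both on the minus strand, with 46.7 kb between them. *Stat4* (ENSMUSG00000062939) lies at chr1:51987148-52107189 and *Jak2* (ENSMUSG00000024789) at chr19:29251828-29313080, both on the plus strand. The other members are *Il12rb1* (ENSMUSG00000000791, chr8:70808449-70821424, plus strand), *Tyk2* (ENSMUSG00000032175, chr9:21104068-21131243, minus strand), *Il18r1* (ENSMUSG00000026070, chr1:40465552-40500854, plus strand), and *Il18rap* (ENSMUSG00000026068, chr1:40515362-40551705, plus strand).

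The promoters of the 4 members that rose with anti-PD1 are shown. Each is the RefSeq window from 250 bases before to 50 bases after a start site, in GRCm38.p6 and on the strand of the gene. Capitals mark matches on either strand to AP-1 (TGANTCA), NFAT (GGAAA), the STAT-binding GAS element (TTCNNNGAA), or the E-box CACGTG. *Stat4* has a further start site in the table, which is not printed.
Il12rb2, chr6:67376139-67376438, minus strand: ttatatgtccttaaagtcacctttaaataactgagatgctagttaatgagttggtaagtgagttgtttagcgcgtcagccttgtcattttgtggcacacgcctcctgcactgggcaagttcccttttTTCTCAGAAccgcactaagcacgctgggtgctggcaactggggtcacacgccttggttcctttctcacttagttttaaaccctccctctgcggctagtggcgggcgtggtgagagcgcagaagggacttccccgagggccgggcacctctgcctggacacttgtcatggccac
Il23r, chr6:67491806-67492105, minus strand: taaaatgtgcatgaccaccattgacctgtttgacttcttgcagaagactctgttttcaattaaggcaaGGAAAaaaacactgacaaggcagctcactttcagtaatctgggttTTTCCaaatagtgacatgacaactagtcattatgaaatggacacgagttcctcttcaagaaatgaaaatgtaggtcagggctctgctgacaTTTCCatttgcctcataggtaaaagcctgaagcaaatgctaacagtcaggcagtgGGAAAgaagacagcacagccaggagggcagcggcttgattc
Stat4, chr1:51986898-51987197, plus strand: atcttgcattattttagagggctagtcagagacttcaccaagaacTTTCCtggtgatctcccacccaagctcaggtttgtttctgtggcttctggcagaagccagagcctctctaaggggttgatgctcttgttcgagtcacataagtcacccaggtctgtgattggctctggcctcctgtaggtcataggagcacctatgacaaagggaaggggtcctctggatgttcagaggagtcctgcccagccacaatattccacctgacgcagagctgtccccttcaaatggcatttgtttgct
Jak2, chr19:29251553-29251852, plus strand: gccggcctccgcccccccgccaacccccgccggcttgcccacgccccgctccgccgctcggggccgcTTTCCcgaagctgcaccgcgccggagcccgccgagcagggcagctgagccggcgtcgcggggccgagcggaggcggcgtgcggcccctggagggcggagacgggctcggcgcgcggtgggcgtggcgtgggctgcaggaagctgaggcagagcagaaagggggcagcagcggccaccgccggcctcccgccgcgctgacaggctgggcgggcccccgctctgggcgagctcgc
The *Il12rb2* window held 1 GAS match, TTCTCAGAA, and none of the other motifs, and the *Il23r* window held 4 NFAT matches and none of the others. The *Stat4* and *Jak2* windows held 1 NFAT match each, and the *Stat4* window not printed held 2. Windows of members that were not called held such matches too. *Tyk2* held 2 NFAT matches and *Il18rap* 1. Each *Il18r1* window held 1 NFAT match, and that of its start site 3 also held 2 GAS matches. Of 32851 promoters in the table, 8.3% held a GAS match, 61.3% an NFAT match, 7.81% an AP-1 match, and 7.15% an E-box. GC content was 53% for *Il12rb2*, 43% for *Il23r*, 50.7% for *Stat4*, and 81% for *Jak2*, against a median of 52.7% over all promoters. A match describes the letters of the window and is not evidence of binding. A promoter window was found for 7 of the 8 members, and *Il12rb1* had none in the table.

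With anti-PD1, 4 of the 8 genes rose against isotype, and none fell. They were the private chains *Il12rb2* and *Il23r*, the kinase *Jak2*, and *Stat4*. The shared chain *Il12rb1*, the kinase *Tyk2*, and both IL-18 receptor chains did not pass the test (quasi-likelihood test of edgeR, p-values adjusted over all 11877 genes by Benjamini-Hochberg, threshold 0.05). Over all genes tested, 0.631% were called higher and 0.901% were called in either direction. Because the members were chosen with earlier results known, such shares, here and below, are background and not a test of the set. The median log2 fold change of the 8 was 0.95, against 0.00 over all genes. Both anti-PD1 samples lay above both isotype samples for 5 of the 8, the called genes and *Il18r1*, against 19.2% of all genes. These are RNA levels in sorted bulk samples, in which more cells with a transcript and more RNA per cell cannot be told apart. For STAT4 protein, the study reported no significant difference between isotype and anti-PD1 mice, in a separate experiment with a lower antibody dose.

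*Il12rb2*, the chain that confers IL-12 responsiveness, was read 37 and 32 times with isotype, 209 and 267 times with anti-PD1, and 102 and 77 times with anti-Lag3. As CPM these were 17.4 and 12.9, 100 and 109, and 43 and 28.6. The 3 groups did not overlap, with anti-PD1 highest, anti-Lag3 between, and isotype lowest. Anti-PD1 exceeded isotype 6.94-fold (log2 fold change 2.80, SE 0.24, 95% interval 2.32 to 3.28, edgeR adjusted p = 1.55e-10), which was rank 1 by p-value.

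*Il23r*, the private chain of the IL-23 receptor, had 35 and 16 reads with isotype, 146 and 140 with anti-PD1, and 57 and 28 with anti-Lag3. The levels were 16.5 and 6.44 CPM, 70 and 57.2 CPM, and 24 and 10.4 CPM. Both anti-PD1 samples stood above the other 4, while isotype and anti-Lag3 overlapped. *Il23r* was 5.64-fold higher with anti-PD1 than with isotype (log2 fold change 2.50, SE 0.33, 95% interval 1.83 to 3.16, edgeR adjusted p = 3.1e-06, rank 10 by p-value). Its replicates differed widely within the isotype and the anti-Lag3 group. With DESeq2, the tool of the study, the log2 fold change was 2.47 and the adjusted p was 0.0523, so the call was lost. DESeq2 set *Il23r* aside as 1 of 110 dispersion outliers among 11877 genes and kept its own dispersion of 0.21 in place of the trend of 0.0505, whereas edgeR gave it 0.0295.

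*Jak2*, the kinase bound to *Il12rb2* and *Il23r*, had 117 and 139 reads with isotype (55.1 and 55.9 CPM), 234 and 259 with anti-PD1 (112 and 106 CPM), and 162 and 147 with anti-Lag3 (68.3 and 54.6 CPM). The anti-PD1 samples lay above all others, and isotype and anti-Lag3 overlapped. Its level rose 1.96-fold with anti-PD1 over isotype (log2 fold change 0.97, SE 0.18, 95% interval 0.62 to 1.33, edgeR adjusted p = 0.000705).

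*Stat4*, the transcription factor that IL-12 activates, had 155 and 117 reads with isotype (73 and 47.1 CPM), 253 and 261 with anti-PD1 (121 and 107 CPM), and 147 and 217 with anti-Lag3 (62 and 80.6 CPM). Its pattern had the same shape as that of *Jak2*, with wider isotype and anti-Lag3 groups that overlapped. The rise over isotype was 1.91-fold (log2 fold change 0.93, SE 0.19, 95% interval 0.56 to 1.31, edgeR adjusted p = 0.00243). This call was lost without isotype replicate 2 (log2 fold change 0.64, edgeR adjusted p = 0.305) and without anti-PD1 replicate 1 (0.84, edgeR adjusted p = 0.149).

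**Figure D1:**
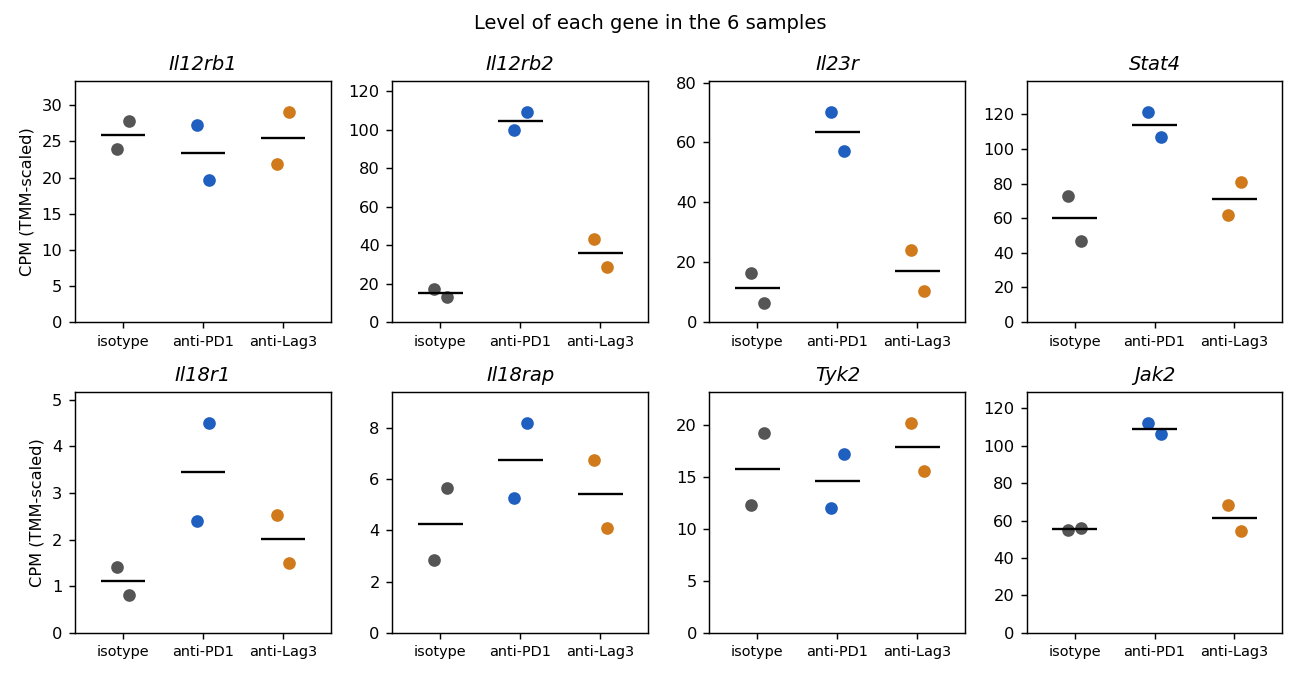
Level of each gene in CPM (TMM-scaled, vertical axis from 0, a separate scale for each gene) in the 2 samples of each antibody group; points are samples and lines are group means. *Il12rb2*, *Il23r*, *Jak2*, and *Stat4* have both anti-PD1 samples above all other samples, while *Il12rb1* and *Tyk2* overlap in all groups.

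The shared chain *Il12rb1* stayed between 19.6 and 29 CPM in every sample. Its reads were 51 and 69 with isotype, 57 and 48 with anti-PD1, and 52 and 78 with anti-Lag3, and all groups overlapped. The log2 fold change with anti-PD1 was -0.15 (SE 0.29, 95% interval -0.74 to 0.43, edgeR adjusted p = 0.972), so the interval leaves room for a change of up to 1.35-fold upward but not for one of the size seen in *Il12rb2* or *Il23r*. *Tyk2*, the kinase bound to the shared chain, had 26 and 48 reads with isotype, 25 and 42 with anti-PD1, and 48 and 42 with anti-Lag3. Its groups overlapped as well, with 12 to 20.2 CPM over the 6 samples and a log2 fold change of -0.12 with anti-PD1 (95% interval -0.84 to 0.61, edgeR adjusted p = 0.981).

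The IL-18 receptor chains were at the edge of detection. *Il18r1*, the chain that binds IL-18, had 3 and 2 reads with isotype, 5 and 11 with anti-PD1, and 6 and 4 with anti-Lag3. Both anti-PD1 samples were above both isotype samples, but the log2 fold change of 1.62 had a 95% interval of -0.60 to 3.84 (edgeR adjusted p = 0.794). *Il18rap*, the accessory chain, had 6 and 14, 11 and 20, and 16 and 11 reads in the same order, with overlapping groups and a log2 fold change of 0.65 (95% interval -0.58 to 1.88, edgeR adjusted p = 0.883). A change of the size of that of *Jak2* was not detectable for either chain at this depth.

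**Figure D2:**
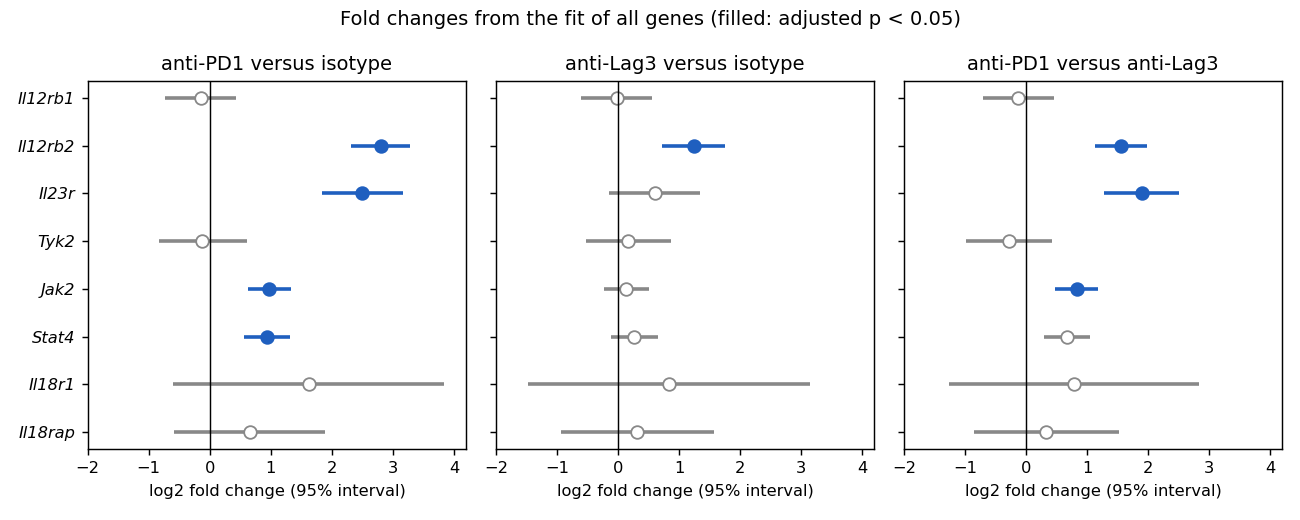
Log2 fold change of the 8 genes (horizontal axis) in the 3 comparisons from the edgeR fit of all 11877 genes; points are estimates, lines are 95% intervals, and filled points have an adjusted p under 0.05. The intervals of *Il18r1* and *Il18rap* are the widest of the 8, and *Il12rb2* is filled in every panel.

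To ask whether the private chains changed relative to the chain they pair with, their reads were divided by those of *Il12rb1* in the same sample, a ratio that library size does not affect. Reads near the 3′ end of different genes are not caught equally well, so only the change of the ratio between samples was read, not its size. *Il12rb2* reads per *Il12rb1* read were 0.725 and 0.464 with isotype, 3.67 and 5.56 with anti-PD1, and 1.96 and 0.987 with anti-Lag3. The 3 groups did not overlap, and the mean log2 ratio was 2.94 higher with anti-PD1 than with isotype and 1.25 higher with anti-Lag3 than with isotype. *Il23r* reads per *Il12rb1* read were 0.686 and 0.232 with isotype, 2.56 and 2.92 with anti-PD1, and 1.1 and 0.359 with anti-Lag3. The anti-PD1 samples lay above the other 4, by a mean log2 difference of 2.75 from isotype and 2.11 from anti-Lag3, while isotype and anti-Lag3 overlapped (difference 0.64). Each comparison of 2 samples against 2 had an exact permutation p of 0.333 at best (two-sided), the smallest this design can give, and 0.667 for *Il23r* between anti-Lag3 and isotype, so these ratios are given as values. Set against each other, *Il12rb2* and *Il23r* kept overlapping proportions, with 1.06 and 2 *Il12rb2* reads per *Il23r* read with isotype, 1.43 and 1.91 with anti-PD1, and 1.79 and 2.75 with anti-Lag3.

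**Figure D3:**
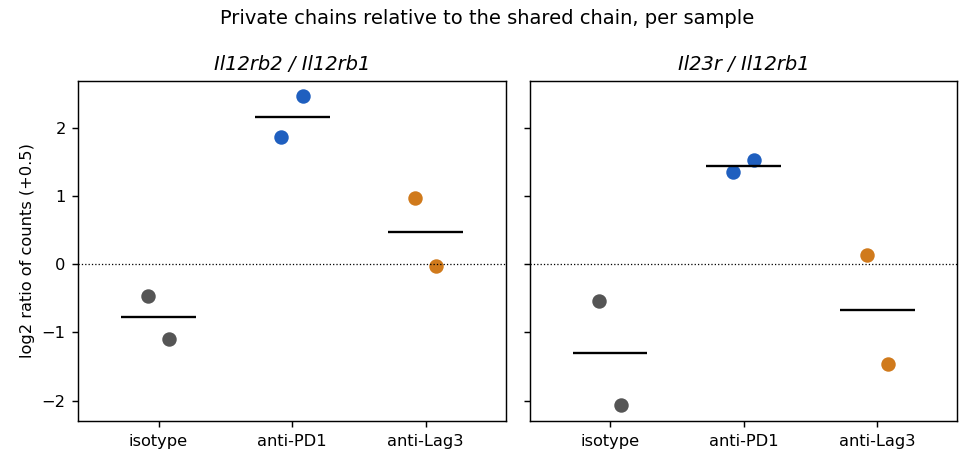
Log2 ratio of *Il12rb2* reads (left) and *Il23r* reads (right) to *Il12rb1* reads, with 0.5 added to each count, in each sample; points are samples, lines are group means, and the dotted line marks equal counts. Both anti-PD1 samples lie above all other samples in both panels.

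The genes around the *Il12rb2* and *Il23r* pair were read to see whether the rise extended along the chromosome. Of 20 annotated genes in the region with 200 kb on either side, 3 besides the pair had enough reads to test, and none was called in any comparison. *Serbp1*, which encodes an mRNA-binding protein, runs toward *Il12rb2* on the opposite strand and overlaps its 3′ end by 6419 bases, 1519 of them exonic in both. It had 54601 reads in all and a log2 fold change of 0.01 (SE 0.07) with anti-PD1 and -0.02 (SE 0.07) with anti-Lag3. The strand setting of the counting is not given in the sources used here, so reads from the overlap cannot be assigned with certainty. The pseudogenes *Gm8566* and *Gm4761* had 15 and 11 reads, too few to read a direction. *Gm4761*, between the pair and on their strand, had 0 and 0 reads with isotype, 4 and 3 with anti-PD1, and 3 and 1 with anti-Lag3.

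**Figure D4:**
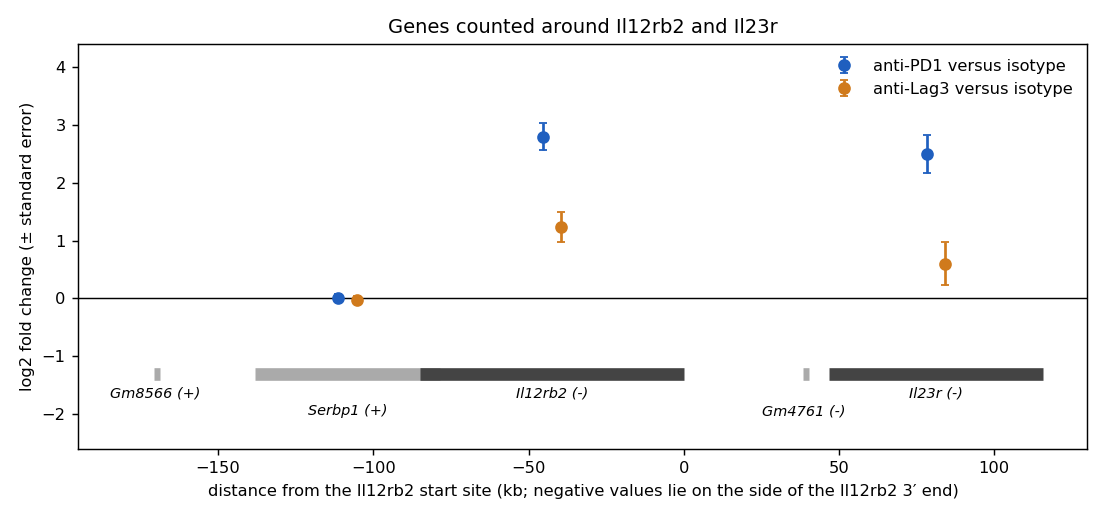
Genes tested around *Il12rb2* and *Il23r* by distance from the *Il12rb2* start site in kb (horizontal axis), drawn as bars with their strand; points give the log2 fold change ± SE against isotype for the 3 genes with at least 100 reads. *Il12rb2* and *Il23r* lie at 2.80 and 2.50 with anti-PD1, and *Serbp1* between -0.02 and 0.01.

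The pseudogene *Gm3940* inside *Stat4* had 30 reads and was not called. Near the IL-18 receptor pair, *Il1r1*, the signaling receptor for IL-1, rose with anti-PD1 from 17.9 and 8.45 CPM to 44.1 and 51.5 CPM (log2 fold change 1.88, SE 0.32, edgeR adjusted p = 3e-04). The *Il1r1* call was lost without isotype replicate 2 (edgeR adjusted p = 0.0714) and without anti-PD1 replicate 2 (edgeR adjusted p = 0.0586). *Il1rl2*, the IL-36 receptor chain between them, had a log2 fold change of -0.63 (SE 0.46, edgeR adjusted p = 0.831).

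With anti-Lag3, *Il12rb2* was the member that passed the test against isotype, and the call was marginal. It was 2.36-fold higher (log2 fold change 1.24, SE 0.26, 95% interval 0.72 to 1.76, edgeR adjusted p = 0.0497), beside a background of 0.0253% of genes called higher and 0.0421% in either direction. It was no longer called with DESeq2 (adjusted p = 0.29), with limma-voom (adjusted p = 0.201), or with edgeR without isotype replicate 2 (log2 fold change 1.03, adjusted p = 0.658) or without anti-Lag3 replicate 1 (0.92, adjusted p = 0.352). Leaving out anti-PD1 replicate 1 or 2, neither of which belongs to this comparison, also ended the call (edgeR adjusted p = 0.163 and 0.241). Both anti-Lag3 samples lay above both isotype samples for *Il12rb2* and *Il18r1*, 2 of the 8, against 17.3% of all genes. *Il23r* had a log2 fold change of 0.60 (95% interval -0.14 to 1.34, edgeR adjusted p = 0.892), *Stat4* 0.26 (-0.12 to 0.65, edgeR adjusted p = 0.92), and *Jak2* 0.14 (-0.23 to 0.51, edgeR adjusted p = 0.962). The intervals of *Stat4* and *Jak2* end below the estimates of these genes with anti-PD1, but both comparisons share the isotype samples. For *Stat4* the anti-PD1 interval of 0.56 to 1.31 overlaps that with anti-Lag3, so the direct comparison is read for a difference.

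Set directly against anti-Lag3, anti-PD1 gave higher *Il12rb2*, *Il23r*, and *Jak2*, 3 of the 8, against 0.244% of genes called higher and 0.303% called in either direction. *Il23r* differed most, with a 3.73-fold higher level (log2 fold change 1.90, SE 0.31, 95% interval 1.28 to 2.51, edgeR adjusted p = 0.000676). This call was lost without anti-PD1 replicate 1 (edgeR adjusted p = 0.0863) or 2 (edgeR adjusted p = 0.0569). *Il12rb2* was 2.94-fold higher (log2 fold change 1.56, SE 0.21, 95% interval 1.13 to 1.98, edgeR adjusted p = 2.49e-05). *Jak2* was 1.78-fold higher (log2 fold change 0.83, SE 0.17, edgeR adjusted p = 0.0127), a call lost without anti-PD1 replicate 1 or 2 or anti-Lag3 replicate 2 (edgeR adjusted p = 0.339, 0.318, and 0.379). *Stat4* did not pass (log2 fold change 0.67, 95% interval 0.30 to 1.04, edgeR adjusted p = 0.125). Among the settings tried, it passed only with a minimum of 1 read (edgeR adjusted p = 0.036). Even so, both anti-PD1 samples lay above both anti-Lag3 samples for *Stat4*. Such separation held for 4 of the 8 and for 18.2% of all genes. The 3 comparisons share samples and are not independent of each other.

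The rest of the pathway was read from 69 listed genes, of which 58 were tested. With anti-PD1 against isotype, 9 of the 58 rose and 1 fell, with a median log2 fold change of 0.29. Over all genes, 0.901% were called there in either direction. None of the 58 passed with anti-Lag3 against isotype (edgeR). Only 0.0421% of all genes were called in that comparison, so the lack of calls says little about the list. Between anti-PD1 and anti-Lag3, 5 rose and 1 fell, against 0.303% of all genes called in either direction. Among ligands, *Il12a*, *Il12b*, and *Il23a* had 0 reads in all samples, which describes the sorted cells and not the rest of the spleen. None of the 3 tested ligands passed. *Ebi3*, a subunit of IL-27, had the smallest p, with a log2 fold change of -1.67 (edgeR adjusted p = 0.843) for anti-Lag3 against isotype.

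Of 8 other JAKs and STATs, 2 rose with anti-PD1. *Stat3*, the main STAT of IL-23 signaling, went from 323 and 260 CPM to 473 and 438 CPM (log2 fold change 0.65, SE 0.12, edgeR adjusted p = 0.000626). *Stat5a*, activated by IL-2, went from 73.5 and 60.8 CPM to 126 and 117 CPM (0.85, SE 0.16, edgeR adjusted p = 0.00164). Both calls were lost without isotype replicate 2 (edgeR adjusted p = 0.144 for each) and without anti-PD1 replicate 1 (edgeR adjusted p = 0.0773 for *Stat3* and 0.0833 for *Stat5a*). Among 10 genes that restrain JAK and STAT signaling, the phosphatase *Ptpn6* fell, from 228 and 220 CPM to 123 and 106 CPM (log2 fold change -0.97, SE 0.14, edgeR adjusted p = 1.41e-05), and the other 9, which include the SOCS genes, were not called.

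Of 11 Th1 genes tested, *Furin*, a protease gene induced by IL-12 and STAT4, was the member that rose, from 74 and 54.7 CPM to 128 and 139 CPM (log2 fold change 1.06, SE 0.17, edgeR adjusted p = 0.000103). Of 8 Th17 genes tested, 5 rose with anti-PD1, against 0.631% of all genes called higher. The lists were chosen with earlier results of these data known, so their counts are not evidence that one list responds more than another. *Rora*, a transcription factor of Th17 cells, had a log2 fold change of 1.39 (SE 0.16, edgeR adjusted p = 9.16e-08), *Ccr6*, a chemokine receptor, 1.44 (SE 0.28, edgeR adjusted p = 0.00206), and *Ahr*, a ligand-activated transcription factor, 1.42 (SE 0.29, edgeR adjusted p = 0.00251). *Il21*, a cytokine that Th17 cells share with follicular helper cells, had 2.07 (SE 0.30, edgeR adjusted p = 1.54e-05). With anti-Lag3 against isotype, *Il21* had 1.24 (SE 0.31, edgeR adjusted p = 0.281), with groups that did not overlap. With all replicates it passed there only with a minimum of 1 read (edgeR adjusted p = 0.0469) and in no other setting tried. With 1 replicate left out, its log2 fold change there ran from 0.83 to 1.76. *Il17f*, a Th17 cytokine, had 0 and 2 reads with isotype, 42 and 26 with anti-PD1, and 7 and 2 with anti-Lag3, a ratio of 34.6 between anti-PD1 and isotype whose 95% interval of 9.2 to 291 covers counting error only. Gamma-delta T cells can also carry *Il23r* and *Il17f*. A list of 6 markers of these cells was added after the values were seen. The markers summed to 8.95 and 4.03 CPM with isotype, 4.79 and 3.27 CPM with anti-PD1, and 5.06 and 4.09 CPM with anti-Lag3. Only 1 of the 6 had enough reads to test. The part of gamma-delta T cells in these values was not tested. *Ahr* missed the threshold without isotype replicate 1 or anti-PD1 replicate 1 (edgeR adjusted p = 0.0541 and 0.139), *Ccr6* without isotype replicate 2 or anti-PD1 replicate 1 or 2 (edgeR adjusted p = 0.241, 0.0565, and 0.131), and *Il17f* without anti-PD1 replicate 1 (edgeR adjusted p = 0.117) and with limma-voom (adjusted p = 0.0773).

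None of 11 IL-18 receptor signaling genes passed, and *Map3k7* had the smallest p (log2 fold change -0.50 with anti-PD1, edgeR adjusted p = 0.323). In the IL-1 receptor family *Il1r1*, described above, was the called gene of 4 tested. None of 3 tested chains related to the IL-12 receptor passed, and *Il6ra* had the smallest p (log2 fold change -0.65, edgeR adjusted p = 0.212). Between anti-PD1 and anti-Lag3, *Stat3*, *Furin*, *Rora*, *Il1r1*, and *Il17f* were higher and *Ptpn6* lower with anti-PD1. *Stat3* lost its call with DESeq2 (adjusted p = 0.0647), and with the filterByExpr filter and the newer edgeR fit (edgeR adjusted p = 0.0706 and 0.0771). *Il1r1* lost its call with filterByExpr and the newer fit (edgeR adjusted p = 0.0852 and 0.0536). *Il17f* lost its call with limma-voom (adjusted p = 0.0746) and filterByExpr (edgeR adjusted p = 0.0598), and *Ptpn6* with the newer fit (edgeR adjusted p = 0.0536). *Rora* kept its call in every fit with a replicate left out and lost it with DESeq2 (adjusted p = 0.0969). The other 5 each lost the call without anti-PD1 replicate 1 and without anti-PD1 replicate 2, with edgeR adjusted p from 0.0863 for *Furin* to 0.843 for *Il1r1* and *Ptpn6*. They lost it also without anti-Lag3 replicate 2 (*Furin*, *Il1r1*, *Il17f*, and *Ptpn6*, edgeR adjusted p from 0.197 to 0.708) or anti-Lag3 replicate 1 (*Stat3*, edgeR adjusted p = 0.261).

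**Figure D5:**
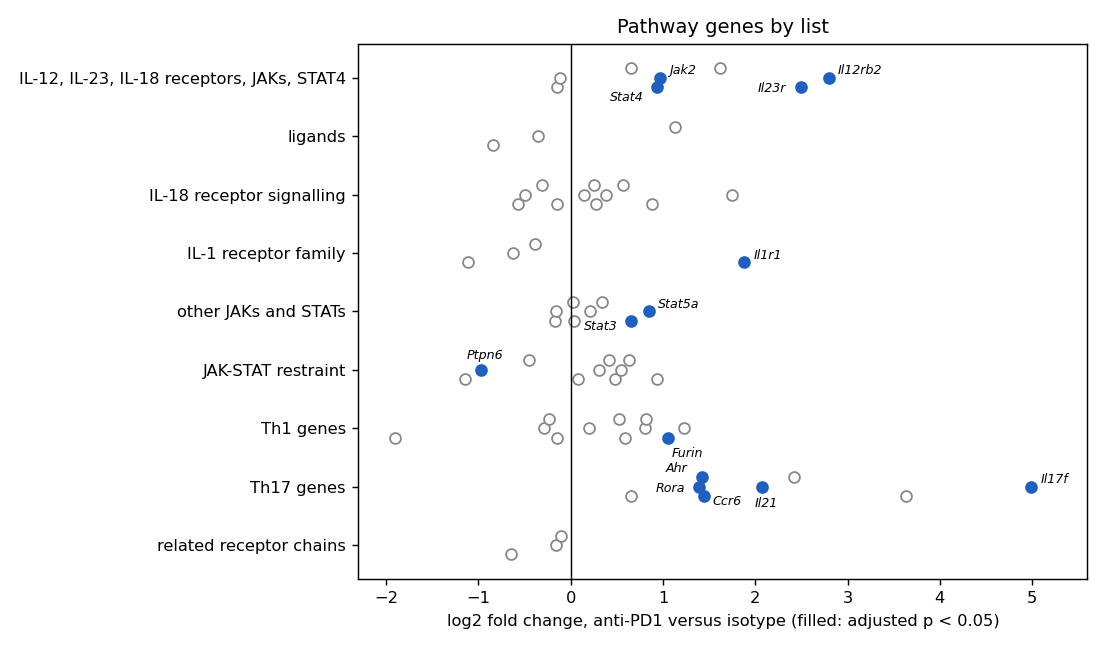
Log2 fold change of each tested gene between anti-PD1 and isotype (horizontal axis), with 1 row for each list; filled and named points have an adjusted p under 0.05 in the edgeR fit of all genes. The Th17 list holds 5 filled points of 8, the Th1 list 1 of 11, and the IL-18 receptor signaling list none of 11. The lists were chosen with earlier results of these data known, so these counts do not rank them. The *Il17f* point rests on 2 isotype reads.

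Over the 6 samples, the log2 CPM of *Il12rb2*, *Il23r*, and *Jak2* ran together (Pearson's r of 0.94 for each pair), and *Stat4* followed them at 0.80 to 0.86. *Il18r1*, which was not called, stood as close, with 0.91 to *Il12rb2*, 0.86 to *Il23r*, and 0.80 to *Jak2*, on at most 11 reads a sample. *Il12rb1* ran weakly the other way (-0.46 with *Il12rb2* and -0.51 with *Il23r*). These are descriptions over 6 points that share the 3 groups. Among 7132 genes with a mean of at least 10 CPM, those most like *Il12rb2* were *Ptpn4* (r = 0.998), *Tnfrsf4* (0.997), and *Pim1* (0.996). *Tnfrsf4* encodes the costimulatory receptor OX40 and had 242 and 226 CPM with isotype, 408 and 411 with anti-PD1, and 328 and 274 with anti-Lag3. Most like *Stat4* were *Stat3* (0.994), *Csnk1d* (0.993), and *Gypc* (0.988), and most like *Jak2* were *Cyth1* (0.996), *Cbarp* (0.993), and *Cdc14b* (0.993).

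On the authors' own rlog scale low counts are shrunk. The anti-PD1 value exceeded the isotype value by 0.92 for *Il12rb2*, 0.62 for *Il23r*, 0.44 for *Jak2*, and 0.43 for *Stat4*, and the other 4 differed by -0.03 to 0.04, among them *Il18r1* at 0.04, whose fitted log2 fold change of 1.62 rests on few reads. For anti-Lag3 the difference was 0.29 for *Il12rb2* and at most 0.11 for the others.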

How the data were processed

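RNA of sorted T cells was made into QuantSeq 3′ forward libraries, so reads lie near the 3′ end of a transcript. The authors trimmed reads (Bbduk), aligned them to GRCm38 (STAR 2.5.2a in the submitters' processing notes), and counted them with HTSeq-count; the annotation release and strand setting are not given in the sources used here. The deposited counts are raw whole-number reads per Ensembl gene. A table of rlog values, on a log2 scale and made by the authors with DESeq2, was deposited as well. A further replicate batch, which the authors excluded, was not analysed here.

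Genes were named from GENCODE annotation (47224 of 47643 identifiers matched). edgeR 4.0.16 (R 4.3.3) fitted all 6 samples by group with TMM scaling and a minimum of 10 reads; the common dispersion was 0.016. Alternatives were DESeq2 1.42.0, limma-voom (limma 3.58.1), other scalings and filters, removal of *Gm42418* and mitochondrial rRNA, the samples of 1 comparison, a replicate block, and each replicate left out; robust and newer edgeR fits were added after seeing the data. The tests were checked on simulated counts drawn with the same dispersion for every gene. That check does not cover genes of wider spread, such as *Il23r*. It required recovery of changes only for well-read genes, so members with few reads, such as the IL-18 receptor chains, were not covered. The labels call the samples biological duplicates. The study's methods describe replicate mice that were each stained separately for sorting, and do not mention pooling of animals. With 2 samples a group, the edgeR p-values rest on a spread drawn strongly toward that of other genes (prior degrees of freedom 37.2). They measure the spread of a gene between its own replicates only in part. Intervals of read counts cover counting error only.

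Members and gene lists were chosen with earlier results of these data known. Named genes were the 8 members, every called gene of the pathway lists or, where none was called, that with the smallest p, testable neighbours within 200 kb, and the 3 genes most correlated with *Il12rb2*, *Stat4*, and *Jak2*. Some neighbours are not reported here.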

Additional observations from a re-analysis of the deposited data

How the results depend on the processing

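Limits include 2 samples a group, low reads for the IL-18 receptor chains, and calls that depend on the tool, filter, or scaling. The 4 members called between anti-PD1 and isotype kept their direction in all settings tried, but *Il23r* missed the threshold with DESeq2 (adjusted p = 0.0523, against 3.87e-14 to 0.000116 in the other settings with all replicates), and *Stat4* missed it in 2 fits with a replicate left out. The number of members called between anti-Lag3 and isotype fell from 1 to 0 under DESeq2, limma-voom, DESeq2 size factors, upper quartile scaling, filterByExpr, removal of *Gm42418* and mitochondrial rRNA, a fit of the 4 samples of the comparison, and the newer quasi-likelihood fit. The genes called in that comparison went from 5 to 1 under DESeq2, 0 under filterByExpr, 20 with a minimum of 1 read, 3 without *Gm42418* and mitochondrial rRNA, 0 with only 4 samples, and 0 with the newer fit. Those between anti-PD1 and anti-Lag3 went from 36 to 16 under DESeq2 and 58 with a minimum of 1 read. The cause was not tested.

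With 1 replicate left out, genes called ranged from 46 to 161 between anti-PD1 and isotype (members 3 to 4), from 0 to 16 between anti-Lag3 and isotype (members 0 to 1), and from 3 to 49 between anti-PD1 and anti-Lag3 (members 1 to 3). The log2 difference of the *Il23r* to *Il12rb1* ratio between anti-Lag3 and isotype ran from -0.16 (without anti-Lag3 replicate 1) to 1.44, and was -0.13 without isotype replicate 2. Fold changes of uncalled genes that changed sign are given as log2 ranges over the same fits. Between anti-PD1 and isotype these were *Il12rb1* (-0.40 to 0.07) and *Tyk2* (-0.41 to 0.26). Between anti-Lag3 and isotype they were *Il12rb1* (-0.23 to 0.16), *Il23r* (-0.11 to 1.40), *Stat4* (-0.03 to 0.61), *Il18rap* (-0.07 to 0.91), *Tyk2* (-0.10 to 0.54), *Jak2* (-0.03 to 0.31), *Furin* (-0.01 to 0.44), *Rora* (-0.06 to 0.72), and *Ccr6* (-0.15 to 0.92). Between anti-PD1 and anti-Lag3 they were *Il12rb1* (-0.38 to 0.10) and *Il18rap* (-0.03 to 0.72). None of these values passed the threshold.

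The study's methods describe an excluded batch of 1 sample per group processed together, but no source used here says whether same-numbered samples of the kept replicates shared a batch. Deviations of same-numbered samples correlated at 0.0356, 0.033, and -0.0553 over 7138 genes, so the numbers were not taken as pairs. With a replicate block, 144, 6, and 46 genes were called in the 3 comparisons, in the order used above, and 4, 1, and 3 members. The block changed the call of no member, and *Ccr6* passed between anti-PD1 and anti-Lag3 (adjusted p = 0.00867).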
